A study of Mus musculus with 18 samples.

Results

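The 10 genes described here encode proteins that build, bind or cut the extracellular matrix: osteopontin (Spp1) and thrombospondin 1 (Thbs1), the metalloproteinases Mmp9, Mmp12, Mmp13, Mmp14 and Adamts1, the metalloproteinase inhibitor Timp1, and the urokinase plasminogen activator (Plau) with its receptor (Plaur). They were taken by name, with earlier results of these data known, and all 10 were among the 23102 genes measured. Their RNA was followed in J774 cells, a mouse macrophage line grown in medium without phenol red, after 24 h of exposure in 24-well plates. The 6 groups of 3 arrays each were talc plus estradiol, talc, titanium dioxide (TiO2) plus estradiol, TiO2, estradiol, and vehicle. Talc and TiO2 were given at 10 µg per well, and 17-β estradiol at 2 µg/mL. The labels do not name the vehicle. All cells were of 1 line, and nothing in the labels ties the arrays to separate cultures, so the p-values cover the spread among these arrays alone, and that spread may be technical.

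Macrophages that meet material they cannot digest change their surroundings through secreted proteins. Matrix metalloproteinases are made as inactive precursors and cleave collagens, elastin, gelatin and many signalling proteins once activated, and TIMP proteins block their active site. Urokinase turns plasminogen into plasmin, a broad protease that dissolves fibrin and activates several metalloproteinases, and its receptor holds it at the cell surface. Osteopontin and thrombospondin 1 are matricellular proteins, which sit in the matrix and signal through integrins, CD44, CD36 and CD47 rather than giving it strength.

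A gene's value is the mean log2 intensity of those of its array probe sets that carry its symbol alone, and 122 probe sets stood behind the 10 genes. The median intensity of an array was 45.6 at the lowest and 48.0 at the highest. The array with the lowest upper quartile, 222.2, was replicate 3 of TiO2 plus estradiol. Each group held 3 consecutive array numbers, so that an effect of array order and an effect of group cannot be told apart. The macrophage markers Cd68, Csf1r, Ptprc and Itgam stood above 99% of genes by their mean value, and all 8 macrophage markers stood at percentile 67.9 or above. The fibroblast, epithelial, lymphocyte, granulocyte and endothelial markers lay between percentiles 9.59 and 54.1. The mean of the 8 macrophage markers was 9.92 to 10.05 log2 units in talc arrays and 10.03 to 10.11 with talc plus estradiol. It was 9.995 to 10.20 with TiO2 and 10.01 to 10.06 with TiO2 plus estradiol. With estradiol it was 10.11 to 10.14, and in vehicle arrays 10.18 to 10.21. The part of these 8 markers in the results below was not tested. Of these markers Adgre1 and Itgam passed as lower with talc against vehicle, and Itgam against estradiol. They did not all move alike: group means that did not pass were 12.82 with talc and 12.67 with vehicle for Cd68, and 10.12 with talc and 9.98 with vehicle for Spi1. Among the other markers Pdgfra of the fibroblast list passed as lower in both arms and none of the rest passed, and the mean of each of these lists overlapped between the talc arrays and the vehicle or estradiol arrays they were set against. In bulk RNA, fewer cells of a kind and less RNA per cell cannot be told apart.

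Without estradiol, talc against vehicle changed the RNA of 6 of the 10 genes. Spp1, Adamts1, Mmp9, Mmp13 and Plaur rose, Plau fell, and Mmp12, Mmp14, Timp1 and Thbs1 did not pass the test. The median log2 change of the 10 genes was 0.27, against 0.02 over all genes. A gene passed at an adjusted p under 0.05 in limma, with Benjamini-Hochberg adjustment over all genes of the comparison, and 8.46% of all genes did so, 3.94% as higher and 4.52% as lower. Of the 11551 genes above the median level, where 7 of the 10 genes lay, 15.8% passed. In cells given estradiol, talc against estradiol alone changed 5 of the 10 genes, with 7.13% of all genes passing, 4.13% as higher and 3% as lower. Spp1, Adamts1, Mmp9 and Plaur rose, Plau fell, and Mmp13 did not pass. The median log2 change of the 10 genes there was 0.13. Each comparison of talc used arrays that the other did not. The 10 genes were chosen with earlier results of these data known. Setting their shares and medians beside those of all genes is therefore a description and not a test.

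For Spp1, Adamts1, Mmp9, Plaur and Plau the 6 arrays with talc lay apart from the 12 arrays without it, which held for 6.59% of all genes. Among the 10 genes the largest change in the 2 talc comparisons above was 1.79-fold, for Adamts1 with talc against vehicle.

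**Figure D1:**
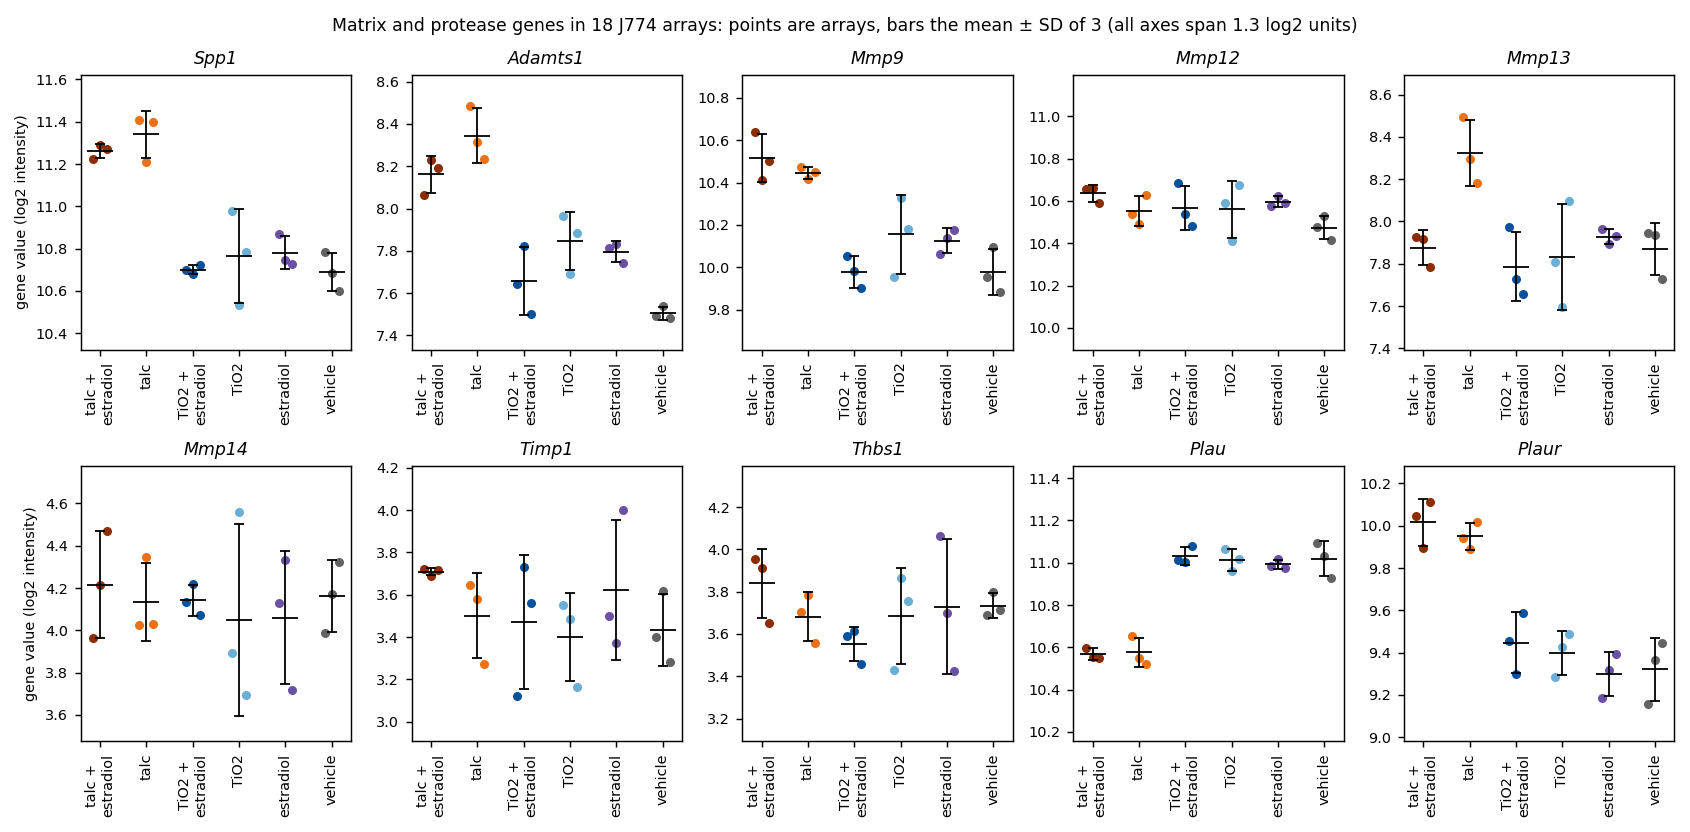
Gene value (log2 intensity, vertical axes spanning 1.3 log2 units) of the 10 genes in the 6 groups; points are arrays, and black bars are the mean ± SD of 3 arrays. The talc and talc plus estradiol arrays lie above all others for Spp1, Adamts1, Mmp9 and Plaur and below all others for Plau.

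Spp1 (gene ID 20750, chr5:104435111-104441053 in GRCm38.p6) encodes osteopontin, a secreted protein of bone and of activated macrophages that binds integrins and CD44. Its gene value was 11.22, 11.29 and 11.27 log2 units with talc plus estradiol, and 11.41, 11.21 and 11.40 with talc. It was 10.70, 10.68 and 10.72 with TiO2 plus estradiol, 10.98, 10.54 and 10.79 with TiO2, 10.87, 10.74 and 10.73 with estradiol, and 10.78, 10.69 and 10.60 with vehicle. The lowest array with talc, at 11.21, thus stood above the highest array without it, a TiO2 array at 10.98. The log2 change was 0.65 ± 0.11 for talc against vehicle (SE, limma adjusted p = 0.00091), which is 1.57-fold. In the presence of estradiol it was 0.48 ± 0.11 (limma adjusted p = 0.011). With the brightest probe set of the gene in place of the mean, these changes were 0.22 (adjusted p = 0.39) and 0.36 (adjusted p = 0.13), and neither passed.

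Thbs1 (21825, chr2:118111876-118127133), whose product activates latent TGF-beta and binds CD47 and CD36, gave a dim signal at percentile 26.0 of all genes. Its arrays spanned 3.42 to 4.06 log2 units over all groups, and the highest and the lowest of these were both estradiol arrays. With talc the log2 change was -0.05 (95% interval -0.37 to 0.26) against vehicle and 0.11 (-0.20 to 0.42) against estradiol. With 3 arrays a group, the data remain compatible with changes anywhere within these intervals.

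Among the metalloproteinases, Adamts1 (11504, chr16:85793827-85803113) had the largest change of the 10 genes with talc alone. It encodes a secreted protease that cleaves the proteoglycans versican and aggrecan and itself carries thrombospondin repeats. Gene values were 8.06, 8.23 and 8.19 log2 units with talc plus estradiol and 8.49, 8.31 and 8.23 with talc. They were 7.65, 7.82 and 7.50 with TiO2 plus estradiol, 7.96, 7.69 and 7.88 with TiO2, 7.81, 7.83 and 7.74 with estradiol, and 7.49, 7.54 and 7.48 with vehicle. Both sets of talc arrays lay above all others. The log2 change with talc was 0.84 ± 0.11 against vehicle (SE, limma adjusted p = 8.7e-05), which is 1.79-fold, and 0.37 ± 0.11 against estradiol (limma adjusted p = 0.047). The call against estradiol was lost in 9 of 15 alternatives. It did not hold on leaving out each of the 3 arrays of either group in turn. Nor did it hold with the brightest probe set, the median of the probe sets or the compared arrays alone. Over all 15 alternatives the log2 change was 0.33 to 0.43, with an adjusted p of up to 0.15.

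Mmp9 (17395, chr2:164940326-164955850) encodes gelatinase B, which cleaves denatured collagen and type IV collagen and is released by macrophages and neutrophils. Its gene values were 10.64, 10.41 and 10.50 log2 units with talc plus estradiol and 10.47, 10.42 and 10.45 with talc. They were 10.05, 9.98 and 9.90 with TiO2 plus estradiol, 9.95, 10.33 and 10.18 with TiO2, 10.06, 10.14 and 10.18 with estradiol, and 9.95, 10.10 and 9.88 with vehicle. The nearest array without talc was TiO2 replicate 2 at 10.33, below the lowest array with talc at 10.41. The log2 change with talc was 0.47 ± 0.11 against vehicle (SE, limma adjusted p = 0.009) and 0.39 ± 0.11 against estradiol (limma adjusted p = 0.031). With the brightest probe set the change against vehicle was 0.24 (adjusted p = 0.59) and did not pass. The call against estradiol was lost in 8 of 15 alternatives. It did not hold without talc plus estradiol replicate 1 or 3 or without any of the estradiol arrays. Nor did it hold with the brightest probe set, the median of the probe sets or the compared arrays alone. Over the 15 alternatives the log2 change was 0.33 to 0.50, with an adjusted p of up to 0.18.

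Mmp13 (17386, chr9:7272514-7283333) encodes collagenase 3, the main interstitial collagenase of mice, and its estimated response to talc differed between the arms. Its gene values were 7.93, 7.92 and 7.78 log2 units with talc plus estradiol and 8.49, 8.30 and 8.18 with talc. They were 7.97, 7.73 and 7.66 with TiO2 plus estradiol, 7.81, 7.60 and 8.10 with TiO2, 7.96, 7.89 and 7.93 with estradiol, and 7.95, 7.94 and 7.73 with vehicle. Only the 3 talc arrays stood clear of the other 15, and those with talc plus estradiol lay within the range of the groups without talc. How many of all genes had the 3 talc arrays clear of the other 15 was not counted. The log2 change with talc was 0.45 ± 0.13 against vehicle (SE, limma adjusted p = 0.037) and -0.05 ± 0.13 against estradiol (adjusted p = 0.89). The test of this difference, the interaction of talc with estradiol, gave -0.50 ± 0.18 (unadjusted p = 0.013, limma adjusted p = 0.67), so the arms were not shown to differ. The call against vehicle was lost in 8 of 15 alternatives, among them leaving out talc replicate 1 or 2 or any vehicle array, while its log2 change stayed between 0.21 and 0.52.

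Mmp12 (17381, chr9:7344397-7360461), the macrophage elastase, was among the brightest genes, at percentile 98.9, and moved little. The highest group mean was 10.64 ± 0.04 log2 units with talc plus estradiol and the lowest 10.47 ± 0.06 with vehicle (SD, n = 3 arrays). With talc the log2 change was 0.08 (95% interval -0.12 to 0.28) against vehicle and 0.04 (-0.16 to 0.24) against estradiol. Its brightest probe set averaged 13.71 log2 units, and whether so high a signal narrows its changes was not tested. Mmp14 (17387, chr14:54431598-54442456), a membrane-bound metalloproteinase that activates pro-MMP2 and pro-MMP13, was dim at percentile 37.2. Its arrays spanned 3.70 to 4.56 log2 units, both ends being TiO2 arrays. The changes with talc were -0.03 (95% interval -0.45 to 0.40) against vehicle and 0.16 (-0.27 to 0.58) against estradiol on the log2 scale, and these intervals still hold a shift of the size seen for Mmp9 in the estradiol arm.

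Timp1 (21857, chrX:20870166-20874737), the secreted inhibitor of most of these metalloproteinases, was the dimmest of the 10 genes, at percentile 21.6. Gene values were 3.72, 3.69 and 3.72 log2 units with talc plus estradiol and 3.65, 3.58 and 3.27 with talc. They were 3.12, 3.73 and 3.56 with TiO2 plus estradiol, 3.55, 3.49 and 3.17 with TiO2, 3.5, 3.37 and 4.0 with estradiol, and 3.40, 3.62 and 3.28 with vehicle. The 3 arrays with talc plus estradiol lay close together and above those of talc, but within the range of the estradiol arrays. Talc plus estradiol against talc gave a log2 difference of 0.21 ± 0.18 (SE, limma adjusted p = 0.88). With talc the log2 change was 0.07 (95% interval -0.31 to 0.44) against vehicle and 0.09 (-0.29 to 0.46) against estradiol.

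The urokinase gene and its receptor gene went opposite ways. Plaur (18793, chr7:24460937-24475970) encodes uPAR, a lipid-anchored receptor without a cytoplasmic part that works with integrins. Its gene values were 10.05, 9.89 and 10.11 log2 units with talc plus estradiol and 9.94, 9.89 and 10.02 with talc. They were 9.46, 9.30 and 9.59 with TiO2 plus estradiol, 9.29, 9.43 and 9.49 with TiO2, 9.19, 9.32 and 9.39 with estradiol, and 9.16, 9.36 and 9.44 with vehicle. All arrays with talc lay at 9.89 or more and all others at 9.59 or less. The log2 change with talc was 0.63 ± 0.11 against vehicle (SE, limma adjusted p = 0.0014), which is 1.55-fold, and 0.72 ± 0.11 against estradiol (limma adjusted p = 0.00062). Both calls held in all 15 alternatives tried for each.

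Plau (18792, chr14:20836662-20843388) encodes urokinase itself, the serine protease that cuts plasminogen. Its gene values were 10.60, 10.55 and 10.55 log2 units with talc plus estradiol and 10.66, 10.55 and 10.52 with talc. They were 11.01, 11.001 and 11.08 with TiO2 plus estradiol, 11.06, 10.96 and 11.02 with TiO2, 10.99, 11.02 and 10.97 with estradiol, and 11.09, 11.03 and 10.93 with vehicle. The gap between the highest array with talc, 10.66, and the lowest without it, 10.93, was wider than the spread within any group. The log2 change was -0.44 ± 0.08 against vehicle (SE, limma adjusted p = 0.0025) and -0.42 ± 0.08 against estradiol (limma adjusted p = 0.0045), or 0.736-fold and 0.745-fold. Neither passed with the brightest probe set (log2 changes of -0.33 and -0.32) or with the median of the probe sets (-0.29 and -0.51), although the sign held in all 15 alternatives of each comparison.

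**Figure D2:**
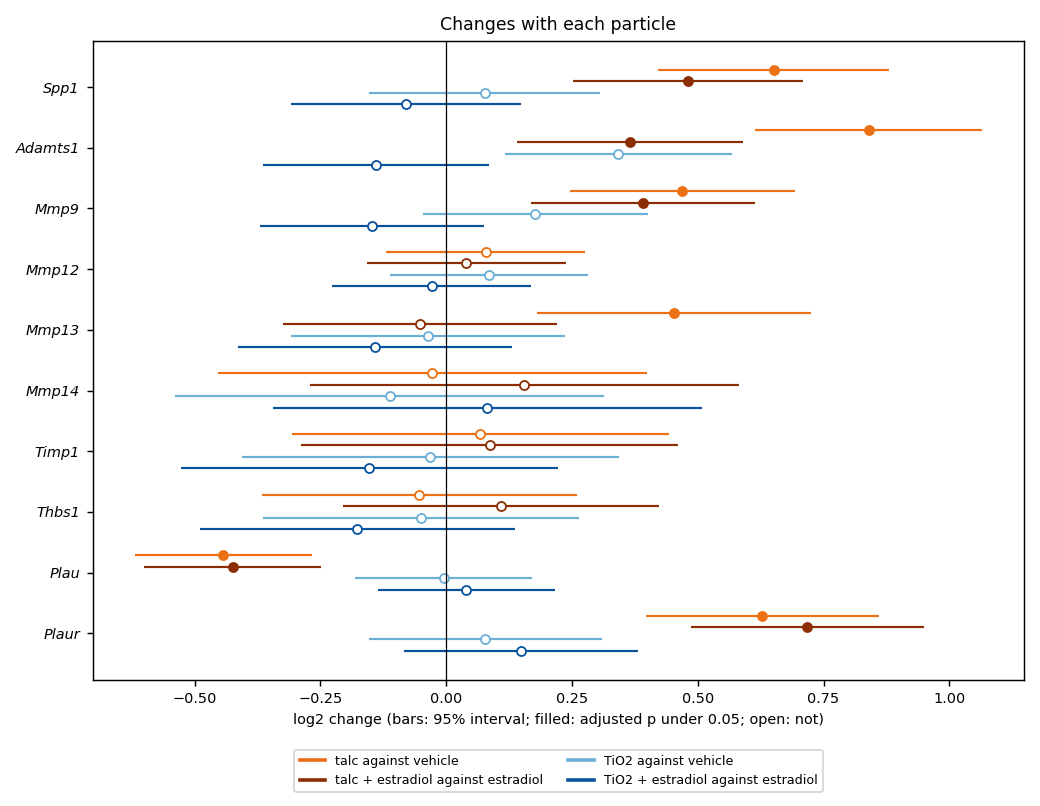
Log2 change of each gene with talc and with TiO2, without and with estradiol; points are limma estimates from 3 against 3 arrays, bars are 95% intervals, and filled points passed at an adjusted p under 0.05. Only the talc comparisons have filled points, to the right of 0 for Spp1, Adamts1, Mmp9 and Plaur in both arms and for Mmp13 without estradiol, and to the left for Plau in both arms.

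Single probe sets showed how evenly these changes held within each gene. All 8 probe sets of Plaur and all 11 of Spp1 were higher with talc in both arms, and all 11 of Plau were lower in both. For Spp1 the changes against vehicle were 0.92 to 1.04 log2 units in the 3 dimmest probe sets and 0.36 and 0.22 in the pair of brightest ones. For Plaur the probe set changes against vehicle ran from 0.48 to 0.81 log2 units, and for Plau from -0.95 to -0.27. Mmp9 had 14 of 15 probe sets higher in each arm, and the exception in the vehicle arm, at -0.997, was below the median level of all probe sets. All 14 probe sets of Adamts1 were higher with talc against vehicle and 12 of 14 against estradiol. For Mmp13 all 11 were higher against vehicle, with changes of 0.20 to 0.77, but 6 of 11 against estradiol. The probe sets of the remaining genes scattered to both sides: 11 of 18 were higher with talc against vehicle for Mmp12, 10 of 16 for Thbs1, 5 of 11 for Mmp14 and 5 of 7 for Timp1. Of the probe sets, 0 of 7 for Timp1, 1 of 11 for Mmp14 and 3 of 16 for Thbs1 lay above the median level of all probe sets. Probe sets of 1 gene read the same RNA and are not replicates.

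**Figure D3:**
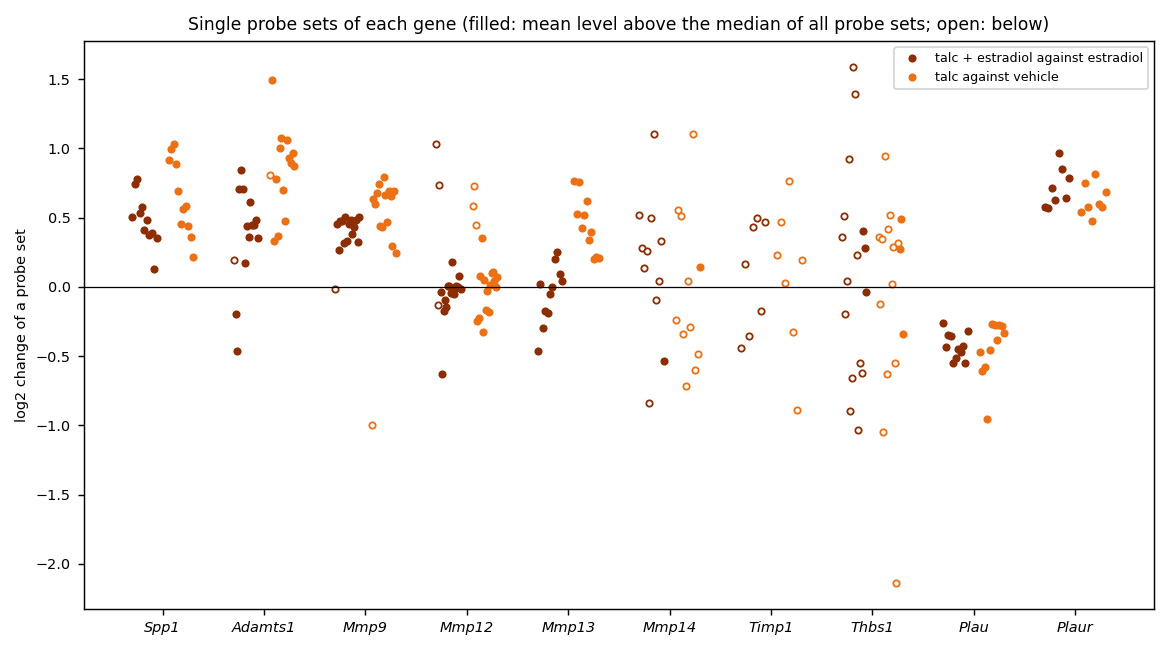
Log2 change of each of the 122 probe sets (vertical axis) by gene, for talc plus estradiol against estradiol and for talc against vehicle. Filled points lie above the median level of all probe sets, and the open points of Mmp14, Timp1 and Thbs1 scatter widely around 0.

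Sequence before the start of transcription was at hand for 7 of the 10 genes in RefSeq (build GRCm38.p6). The 250 bases before a start are shown for 4 genes that rose with talc, since Plaur and Mmp13 hold a match to the AP-1 motif TGANTCA there and Spp1 and Adamts1, which also rose, do not. AP-1 is the factor family of Fos and Jun. Both strands were searched, and capitals mark the match. The Plaur stretch is chr7:24462233-24462482 (plus strand), which lies inside the annotated span of the gene; that of Mmp13 is chr9:7272264-7272513 (plus strand), that of Spp1 is chr5:104434861-104435110 (plus strand), and that of Adamts1 is chr16:85803114-85803363 (minus strand).
Plaur: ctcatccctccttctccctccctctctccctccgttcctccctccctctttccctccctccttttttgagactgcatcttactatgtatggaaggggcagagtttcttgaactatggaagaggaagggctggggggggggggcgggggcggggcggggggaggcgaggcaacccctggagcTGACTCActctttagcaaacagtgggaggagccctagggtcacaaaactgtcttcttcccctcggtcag
Mmp13: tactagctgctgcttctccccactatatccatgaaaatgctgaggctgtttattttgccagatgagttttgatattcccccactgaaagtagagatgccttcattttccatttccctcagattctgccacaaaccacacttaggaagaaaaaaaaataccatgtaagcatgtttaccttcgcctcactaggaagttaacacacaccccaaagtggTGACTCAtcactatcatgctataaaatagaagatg
Spp1: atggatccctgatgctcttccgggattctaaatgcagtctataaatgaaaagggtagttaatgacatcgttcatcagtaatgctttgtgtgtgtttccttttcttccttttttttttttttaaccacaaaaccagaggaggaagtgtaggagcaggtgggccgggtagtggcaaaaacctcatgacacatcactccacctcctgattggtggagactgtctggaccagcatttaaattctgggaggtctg
Adamts1: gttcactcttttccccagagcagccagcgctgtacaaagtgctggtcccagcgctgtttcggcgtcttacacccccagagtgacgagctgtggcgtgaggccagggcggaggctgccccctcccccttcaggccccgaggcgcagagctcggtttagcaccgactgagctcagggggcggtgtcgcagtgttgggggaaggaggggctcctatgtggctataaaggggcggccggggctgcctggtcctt

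The match lies 69 to 63 bases before the listed start of Plaur and 35 to 29 bases before that of Mmp13. Of all 32851 promoter stretches of this length, 6.75% held such a match. Among the other genes, 1 of the 2 listed starts of Mmp12 held it too, and Mmp12 did not pass with talc. The ETS motif AGGAAG, on either strand, was in the stretches of Plaur, Mmp13, Spp1, Mmp14, Timp1 and the first start of Mmp12, and in 29.5% of all stretches. The cAMP response element TGACGTCA was in none of those of the 7 genes and in 1.55% of all. An NF-kB motif was in that of Mmp12 at its first start, and in 7.25% of all. These matches are letters in a window and say nothing of binding in these cells.

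With TiO2, the other particle at the same mass per well, none of the 10 genes passed. Against vehicle, 0 of 10 passed in limma, 0% of all genes did (1886 genes had an unadjusted p under 0.05), and 1 of the 10 had an unadjusted p under 0.05. This was Adamts1, at 7.85 ± 0.14 log2 units with TiO2 and 7.50 ± 0.03 with vehicle (SD, n = 3 arrays), a log2 difference of 0.34 ± 0.11 (SE, unadjusted p = 0.0052, limma adjusted p = 0.47). The TiO2 arrays of Adamts1 lay above all vehicle arrays, and how many of all genes lay apart in this comparison was not counted. With estradiol, TiO2 against estradiol gave a log2 difference of -0.14 ± 0.11 for Adamts1 (limma adjusted p = 0.71). The interaction of TiO2 with estradiol for Adamts1 was -0.48 ± 0.15 (unadjusted p = 0.0054, limma adjusted p = 0.48), so a difference between the arms was not shown. Mmp9 was the other of the 10 genes with an unadjusted p under 0.05 for this interaction, at -0.32 ± 0.15 (unadjusted p = 0.044, limma adjusted p = 0.61). Of all genes 1860 had such an unadjusted p, and 0 passed. In the estradiol arm 0 of 10 genes passed in limma, 0 of 10 had an unadjusted p under 0.05, and 0.00433% of all genes passed. The log2 changes of the 10 genes lay between -0.18 and 0.15. For Plau the 95% intervals were -0.18 to 0.17 with TiO2 against vehicle and -0.14 to 0.22 against estradiol, and for Spp1 they were -0.15 to 0.31 and -0.31 to 0.15. The changes that talc gave in these genes lay outside these intervals.

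The direct comparison of the particles asked whether talc and TiO2 differed. Without estradiol, talc against TiO2 gave higher values of Spp1, Adamts1, Mmp13 and Plaur and lower values of Plau, 5 of 10 genes, with 9.96% of all genes passing in limma, 4.61% as higher and 5.35% as lower. With estradiol, talc against TiO2 gave higher Spp1, Adamts1, Mmp9 and Plaur and lower Plau, again 5 of 10, with 9.53% of all genes passing, 6.66% as higher and 2.87% as lower. These comparisons share the talc arrays with those against vehicle and estradiol above. For Plaur the log2 differences were 0.55 ± 0.11 without and 0.57 ± 0.11 with estradiol (SE, limma adjusted p = 0.0036 and 0.0037), and for Plau they were -0.44 ± 0.08 and -0.46 ± 0.08 (limma adjusted p = 0.0025 and 0.0022). Spp1 differed by 0.57 ± 0.11 and 0.56 ± 0.11, and Adamts1 by 0.50 ± 0.11 and 0.51 ± 0.11. Mmp9 differed by 0.29 ± 0.11 without estradiol (limma adjusted p = 0.095), with talc arrays at 10.42 to 10.47 and TiO2 arrays at 9.95 to 10.33 log2 units. With estradiol the Mmp9 difference was 0.54 ± 0.11 (limma adjusted p = 0.0039). Mmp13 differed by 0.49 ± 0.13 without estradiol (limma adjusted p = 0.022) and by 0.09 ± 0.13 with it (adjusted p = 0.73). In fits of the compared arrays alone, Plaur was the 1 gene of the 10 to pass without estradiol, and 3 passed with it, Spp1, Mmp9 and Plaur. Adamts1 (adjusted p = 0.067) and Plau (adjusted p = 0.051) did not pass there. Over all genes 1011 passed without estradiol and 812 with it in these fits, against 2301 and 2201 in the fit of all arrays.

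None of the 10 genes passed in limma with estradiol, whether added to talc, to TiO2 or alone. Of all genes 0%, 0.00866% and 0% passed in these comparisons, and 1521, 3012 and 1124 genes had an unadjusted p under 0.05. An unadjusted p under 0.05 was found among the 10 for 1 gene with estradiol against vehicle, 1 with talc plus estradiol against talc, and 0 with TiO2 plus estradiol against TiO2. With estradiol alone it was Adamts1, at 7.80 ± 0.05 log2 units with estradiol and 7.50 ± 0.03 with vehicle (SD, n = 3 arrays), a log2 difference of 0.29 ± 0.11 (SE, unadjusted p = 0.014, limma adjusted p = 0.98). On top of talc it was Mmp13, at 7.88 ± 0.08 with talc plus estradiol and 8.32 ± 0.16 with talc (SD, n = 3 arrays), a log2 difference of -0.45 ± 0.13 (SE, unadjusted p = 0.003, limma adjusted p = 0.71). For Adamts1 the interaction of talc with estradiol was -0.47 ± 0.15 (unadjusted p = 0.006, limma adjusted p = 0.64). Adamts1 and Mmp13 were the 2 of the 10 genes with an unadjusted p under 0.05 for it. Of all genes 1460 had such an unadjusted p, and 0 passed. Both interactions of Adamts1 share the estradiol and vehicle arrays. For Plau and Plaur the log2 differences with estradiol lay between -0.03 and 0.07 in all 3 settings.

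**Figure D4:**
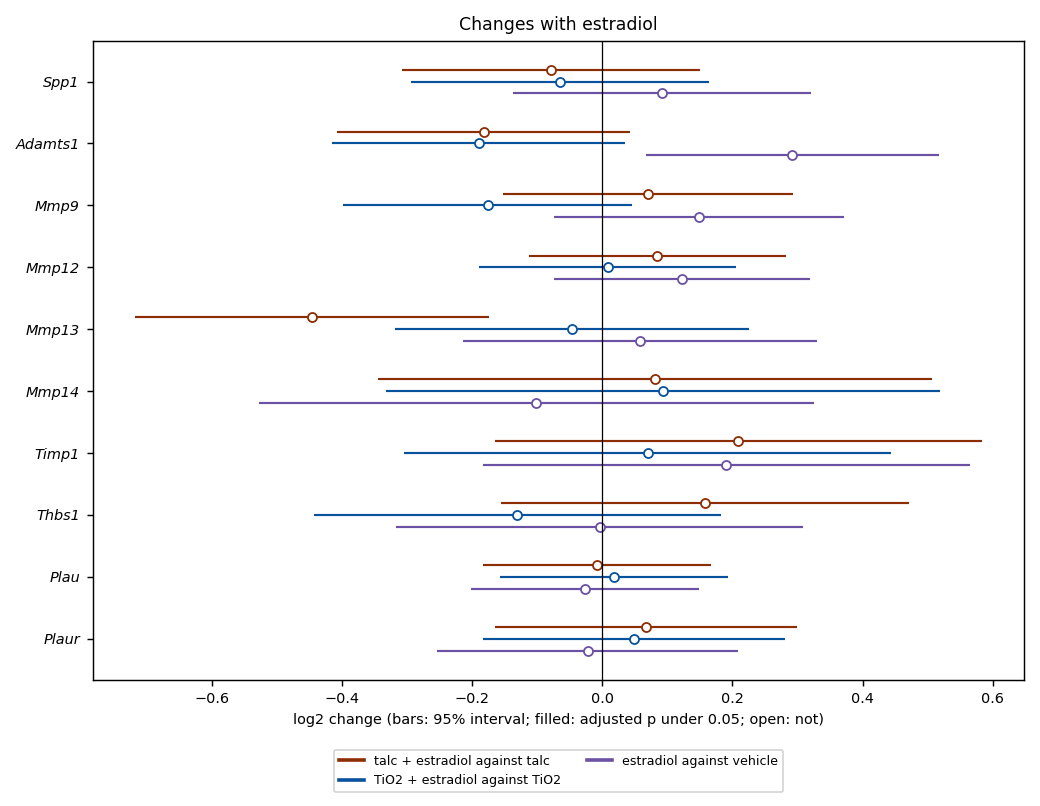
Log2 change of each gene with estradiol in cells given talc, TiO2 or no particle; points are limma estimates from 3 against 3 arrays and bars are 95% intervals. All points are open, meaning that none passed; the interval lies wholly above 0 for Adamts1 with estradiol alone and wholly below 0 for Mmp13 with talc.

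Other genes of matrix turnover, 104 measured in 7 lists, served to place these changes. With talc against vehicle 2 of them rose and 11 fell, with a median log2 change of 0.02, and against estradiol 1 rose and 10 fell, with a median of -0.04. In either direction these are 12.5% and 10.6% of the 104, where 8.46% and 7.13% of all genes passed. Of genes above the median level 15.8% and 13.3% passed, though many of the 104 lay below it. The shares in either direction thus lie near the background. By direction, 3.94% and 4.13% of all genes passed as higher and 4.52% and 3% as lower. Falls therefore made up a larger part of the calls in the lists than over all genes. The lists were written with earlier results of these data known. None of the 19 other metalloproteinases passed in limma in either arm (1 had an unadjusted p under 0.05 against vehicle and 0 against estradiol), and of 18 other ADAMTS proteases 1 did. This was Adamts10, a protease linked to fibrillin microfibrils, with log2 changes of -0.60 ± 0.10 against vehicle (limma adjusted p = 0.00083) and -0.65 ± 0.10 against estradiol (limma adjusted p = 0.00057). Among 5 inhibitors, Reck, a membrane-anchored inhibitor of metalloproteinases, fell by 0.61 ± 0.14 and 0.51 ± 0.14 on the log2 scale in the vehicle and estradiol arms (limma adjusted p = 0.011 and 0.034). Of 10 activating proteases and sheddases, Adam8, a membrane protease of leukocytes, rose by 0.31 ± 0.08 against vehicle (limma adjusted p = 0.023), and had 0.27 ± 0.08 against estradiol (limma adjusted p = 0.052).

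In the plasminogen system 3 of 12 genes fell against vehicle and 2 against estradiol, where 4.52% and 3% of all genes passed as lower. Plat, the tissue-type plasminogen activator, had a gene value of 5.38 log2 units with talc and 6.15 with vehicle, a log2 change of -0.77 ± 0.21 (SE, n = 3 arrays each, limma adjusted p = 0.028), and -1.01 ± 0.21 against estradiol (limma adjusted p = 0.006). Thbd, the endothelial and monocyte cofactor thrombomodulin, changed by -0.37 ± 0.11 and -0.68 ± 0.11 (limma adjusted p = 0.049 and 0.0012). Lrp1, an endocytic receptor of the cell surface, changed by -0.55 ± 0.16 against vehicle (limma adjusted p = 0.047) and by -0.48 ± 0.16 against estradiol (limma adjusted p = 0.098). Both plasminogen activators, Plau and Plat, were lower with talc in each arm while Plaur was higher.

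Of 16 receptors for osteopontin and thrombospondin and partners of uPAR, 1 rose and 5 fell in each arm, where 8.46% and 7.13% of all genes passed in either direction. The integrin subunit Itga5, part of the fibronectin receptor, rose by 0.54 ± 0.12 against vehicle and 0.40 ± 0.12 against estradiol on the log2 scale (limma adjusted p = 0.006 and 0.044). Itgb5, a partner of the alpha-v subunit, fell, with log2 changes of -0.87 ± 0.10 and -0.76 ± 0.10 (limma adjusted p = 3.6e-05 and 0.00019). Itga8 changed by -0.81 ± 0.16 in each arm at a dim signal, percentile 43.6, and Itga4 by -0.71 ± 0.11 and -0.51 ± 0.11. Itgav and Itgam were named after their values were seen. Itgav encodes the alpha-v subunit of osteopontin receptors and changed by -0.54 ± 0.09 and -0.41 ± 0.09 (limma adjusted p = 0.0014 and 0.012). Itgam, a subunit of the receptor that pairs with uPAR on leukocytes and also a macrophage marker, changed by -0.57 ± 0.10 and -0.37 ± 0.10 (limma adjusted p = 0.0016 and 0.033). Among 24 other matrix proteins 1 passed in each arm, Tgfbi, which fell by 2.74 ± 0.10 and 2.25 ± 0.10 on the log2 scale.

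**Figure D5:**
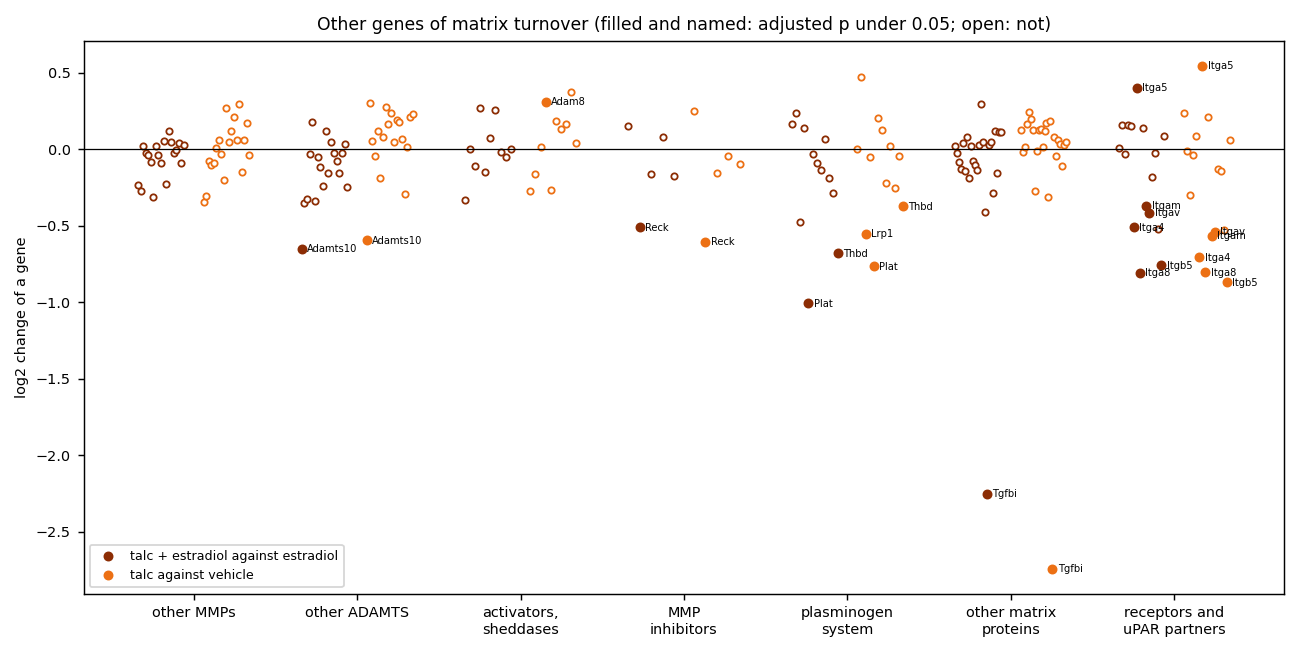
Log2 change of 104 other genes of matrix turnover (vertical axis) in 7 lists, for talc plus estradiol against estradiol and for talc against vehicle; each point is a gene. Filled, named points passed at an adjusted p under 0.05, and most of them lie below 0, with Itga5 and Adam8 above.

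Genes whose values ran most closely with the members over the 18 arrays were sought among 10725 named genes above the median level. Since talc arrays stood apart from the rest, the Pearson correlations over all arrays are given as a description, each with the value within the 12 arrays without talc. For Spp1 the closest were Txnip, a thioredoxin-binding protein (r = 0.97 over 18 arrays, 0.68 over the 12 arrays), Mex3c (0.97 and 0.86) and the thioredoxin reductase Txnrd1 (0.96 and 0.60). Txnip was also the closest to Adamts1 (0.94 and 0.72), followed by Cnot11 (0.94 and 0.79) and Manbal (0.92 and 0.74). For Plaur they were Rrp36 (0.97 and 0.82) and Bop1 (0.97 and 0.82), both factors of ribosome assembly, and Chpf (0.96 and 0.65). For Mmp9 they were Ell (0.95 and 0.79), Pofut2 (0.94 and 0.82) and Hgs (0.94 and 0.77). Mmp13 had neighbours with a lower r over the 18 arrays, Aasdhppt (0.87 and 0.88), Tnpo1 (0.84 and 0.74) and Rbm34 (0.83 and 0.74). For Plau they were Dusp6, a phosphatase of ERK kinases (0.97 and 0.34), Ccnd1, cyclin D1 (0.97 and 0.25), and Tgfbi (0.96 and -0.11). Over the 12 arrays without talc none of these 3 had an r above 0.34 with Plau.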

How the data were processed

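Total RNA of J774 cells was hybridised to 18 Affymetrix arrays. The deposited values are linear intensities, 1 for each probe set in each array; RMA is named in the submitters' processing notes, with no version, and the summary level and the return from log2 are not given in the sources used here. Raw arrays were not used.

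Log2 was taken first. Symbols came from the platform annotation, with 2247 updated through RefSeq synonyms. Of 269751 probe sets, 233753 carried 1 symbol and entered the mean of their gene, while 5106 had several symbols and 30892 had none. All genes were kept. Group means were fitted over all 18 arrays together with limma 3.58.1 in R 4.3.3 (lmFit, eBayes; 12 residual and 4.57 prior degrees of freedom), and 11 contrasts were tested, two-sided. Errors of changes are the model's standard errors. The number of arrays limits the precision: the median standard error was 0.15 log2 units for 3 against 3 arrays and 0.21 for interactions. The code was tested on simulated data.

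The members and lists were chosen with earlier results of these data known. All 10 members are named; from each other list, those passing with talc in either arm, up to 3 rises and 3 falls where more than 5 passed, with exceptions marked where they stand; and the 3 closest genes by Pearson correlation for each member that passed. Replicate numbers were given within groups and pair nothing. Alternatives were the brightest probe set, the median of probe sets, only probe sets or only genes above the median level, quantile normalization, array medians subtracted, an intensity trend with robust variance, a fit of the compared arrays alone, and omission of each array in turn; leaving out TiO2 plus estradiol replicate 3 where it is not compared was added after the data were seen.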

Additional observations from a re-analysis of the deposited data

How the results depend on the processing

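No value that passed changed sign in any alternative, over 310 values of passing changes under an alternative; 51 of these no longer passed, and 5 values gained a call, all of them Mmp9 in talc against TiO2. A further 154 values that passed in neither setting changed sign. Calls of Plaur held throughout. The number of the 10 genes that passed fell with the brightest probe set per gene to 2 for talc against vehicle, 1 for talc plus estradiol against estradiol, 2 for talc against TiO2 and 3 for talc plus estradiol against TiO2 plus estradiol. With the median of the probe sets it was 2 for talc plus estradiol against estradiol and 3 for talc against TiO2. Fitting only the arrays compared gave 3, 1 and 3 for talc plus estradiol against estradiol, talc against TiO2, and talc plus estradiol against TiO2 plus estradiol. The cause was not tested. Over all genes, in the order talc against vehicle, talc plus estradiol against estradiol, talc against TiO2, and talc plus estradiol against TiO2 plus estradiol, the passing counts were 1955, 1647, 2301 and 2201 as reported, 1326, 856, 1480 and 1248 with the brightest probe set, 1181, 851, 1278 and 1183 with the median, and 1251, 988, 1011 and 812 with only the arrays compared. With single arrays left out they were 1233 to 1535, 904 to 1231, 1353 to 1855 and 1221 to 1738. With probe sets above the median level they were 2610 for talc plus estradiol against estradiol and 3477 for talc plus estradiol against TiO2 plus estradiol, and with genes above that level 2483 for talc plus estradiol against estradiol. TiO2 plus estradiol against TiO2 had 2 as reported and 19 with the brightest probe set. Leaving out single arrays gave 5 to 6 for talc against vehicle, 3 to 4 for talc plus estradiol against estradiol (4 without talc plus estradiol replicate 2, 3 without any other array compared), 4 to 5 for talc against TiO2, 5 for talc plus estradiol against TiO2 plus estradiol, and 0 for every other comparison. Without TiO2 plus estradiol replicate 3, which the first 3 of these do not compare, the counts were 6, 5 and 5. Subtracting array medians moved the median gene by at most 0.03 log2 units. No paired analysis was possible because array numbers in the labels run on from group to group, and no label links an array to one of another group. Most probe sets of Timp1, Thbs1 and Mmp14 lay below the median level, and signal over background was not measured.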
